A study of Mus musculus with 6 samples.

Results

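Wfdc17 and Kcnk13 are 2 of the 109 genes in the deposited expression table of RANKL-induced bone marrow macrophages (BMMs), and they were taken from it by gene symbol. Both had already been selected on the comparison described here, because the table holds only genes that the authors called different between control and mogrol-treated cells. Their values are therefore a description of these libraries, and no test of their change is given. BMMs are mouse precursor cells that fuse into multinucleated osteoclasts, the cells that resorb bone, when the cytokine RANKL is added.

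The BMMs came from mice given as C57BL/6 in the labels and as C57BL/6J aged 6 weeks in the study's methods, and were expanded with the growth factor M-CSF. All 6 libraries were made after 5 days with RANKL at 30 ng/ml, 3 of them from cells without mogrol (control) and 3 from cells given 20 μM mogrol, the aglycon of a sweet plant glycoside, at the same time. The sources used here do not say whether the 3 libraries of a group came from separate animals or cultures, so the spread between them may be technical. The labels do not name a vehicle for the control cells. Recovered library totals lay between 18097882 and 18652439 reads, and no pair of libraries of a group agreed within sampling noise, with a chi-square per gene of 5.23 to 40.5 over the table.

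Wfdc17 encodes a small secreted protein with a WAP domain, a fold held by disulfide bonds that is found in inhibitors of serine proteases. It is also known as Amwap, for activated macrophage and microglia WAP domain protein, and has been studied as a factor that dampens inflammatory activation of these cells. Kcnk13 encodes THIK-1, a tandem-pore potassium channel that lets potassium leave the cell at rest. In microglia, the macrophages of the brain, this channel sets the resting potential, and the potassium efflux it carries favors activation of the NLRP3 inflammasome and release of interleukin-1β. The label of inflammation modulators rests on this background, because the deposited annotation gives Wfdc17 no biological process term at all and gives Kcnk13 terms of ion transport only.

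Wfdc17 (ENSMUSG00000069792) lies on the plus strand of chromosome 11 from 83703991 to 83706268 in GRCm38. The GENCODE annotation gives it 1 transcript with 3 exons, 533 exonic bases and 228 coding bases, and it was the shortest of the 109 genes, whose median length was 4304 bases. No other annotated gene overlaps it. Its nearest coding neighbor is the family member Wfdc18, 2747 bases away, followed by the chemokine gene Ccl4 at 39308 bases. The Wfdc17 transcript matched that of Wfdc18 at 79.5% identity over 523 aligned bases. In all, 4 other genes gave a match and 0 reached 98% identity over at least 100 bases.

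Kcnk13 (ENSMUSG00000045404) spans a far longer stretch of the plus strand of chromosome 12, from 99964499 to 100062682, of which 3112 bases are exonic. Each of its 3 coding transcripts has 3 exons and 1215 coding bases, or 405 codons, against 76 codons in Wfdc17. The only overlapping annotated gene is the miRNA gene Gm23291 on the opposite strand, and it touches no Kcnk13 exon. The closest relative among annotated transcripts was Kcnk12, its partner in the THIK subfamily, at 71.0% identity over 889 aligned bases. Levels of Wfdc18 and Kcnk12 were not analysed here.

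The stretches upstream of both genes are shown because both genes were higher in the same libraries and the sequences allow their start regions to be set side by side. They are the 250 bases before the RefSeq start site on GRCm38.p6, plus strand, at chr11:83703806-83704055 for Wfdc17 and chr12:99964249-99964498 for Kcnk13. Capitals mark matches to the searched motifs.
Wfdc17: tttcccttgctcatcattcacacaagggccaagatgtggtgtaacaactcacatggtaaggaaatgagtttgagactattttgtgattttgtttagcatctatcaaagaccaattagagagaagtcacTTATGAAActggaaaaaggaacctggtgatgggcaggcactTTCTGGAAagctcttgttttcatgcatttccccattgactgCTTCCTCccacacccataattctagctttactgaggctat
Kcnk13: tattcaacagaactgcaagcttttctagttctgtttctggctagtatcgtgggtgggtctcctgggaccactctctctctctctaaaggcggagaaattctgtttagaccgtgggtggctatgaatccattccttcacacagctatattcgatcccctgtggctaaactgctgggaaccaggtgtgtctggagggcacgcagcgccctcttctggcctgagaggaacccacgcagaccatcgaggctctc

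The motifs searched on both strands, in these bases and the 50 after the start, were TATAAA for a TATA box, TGANTCA for AP-1, GAGGAAG for the myeloid factor PU.1, GGG, any 2 bases and TTTCC for NF-κB, CACGTG for the E-box of the osteoclast factor MITF, TGACGTCA for CREB and TTNNGNAA for C/EBP. In Wfdc17 the PU.1 letters matched once, on the minus strand from position -40 to -34 counted from the start site, and 13.6% of 32851 RefSeq promoters of the same length held such a match. The C/EBP letters matched at -122 to -115 and at -81 to -74, but they occurred in 40.7% of all promoters. A TATAAA match straddled the RefSeq start site of Wfdc17, and these letters occurred in 13.6% of all promoters. The start given in the deposited table lies 65 bases further upstream, so the window is not placed alike in both annotations. Kcnk13 held no match in the printed bases and 1 match to the C/EBP letters from 10 to 17 bases after the start. The letters of AP-1, NF-κB, MITF and CREB were found in neither window; they occurred in 7.81%, 1.63%, 7.15% and 1.79% of all promoters. The Wfdc17 window was AT-rich, with 42% G and C and 1 CpG, whereas that of Kcnk13, with 52.7% and 9 CpGs, was near the medians of 52.7% and 7 over all promoters.

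Wfdc17 had the fewer reads of the pair in both groups and the larger difference between them. The control libraries held 85, 54 and 63 Wfdc17 reads and the mogrol libraries 338, 269 and 274. Scaled to 1000000 reads of the library total (RPM), the control values were 4.59, 2.90 and 3.46 and the mogrol values 18.3, 14.9 and 14.9. The groups did not overlap, and the lowest mogrol library was 3.24 times the highest control library. Replicate 1 was the highest library in both groups.

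The mean level of Wfdc17 was 3.65 ± 0.863 RPM without mogrol and 16.0 ± 1.95 RPM with it (SD, n = 3), a ratio of 4.39. In an edgeR quasi-likelihood fit of all 109 genes the log2 fold change was 2.13 (standard error 0.172). This was the 4th highest log2 fold change in the table, between Nrcam, a neural adhesion molecule, at 2.26 (standard error 0.170) and Sucnr1, the succinate receptor, at 2.12 (standard error 0.366). The 3 values lie within their standard errors of each other.

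Kcnk13 had more reads than Wfdc17 and a smaller difference between the groups. The control libraries held 174, 127 and 130 reads and the mogrol libraries 375, 378 and 385. In RPM the control values were 9.39, 6.81 and 7.14 and the mogrol values 20.3, 20.9 and 21.0. The groups did not overlap, with the lowest mogrol library at 2.16 times the highest control library. As for Wfdc17, control replicate 1 was the highest of the control libraries, but mogrol replicate 1 was the lowest of the mogrol libraries.

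The mean level of Kcnk13 was 7.78 ± 1.41 RPM without mogrol and 20.7 ± 0.379 RPM with it (SD, n = 3), a ratio of 2.66. The log2 fold change from the same edgeR fit was 1.41 (standard error 0.141), the 18th highest of the table. Its neighbors in that order were the adaptor gene Stap1 at 1.41 and the inhibitory receptor gene Cd300a at 1.41, with standard errors of 0.147 and 0.134, so the order among the 3 genes was within the error. The log2 fold change of Wfdc17 exceeded that of Kcnk13 by 0.72, and the difference was not tested because both genes were chosen on this contrast.

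**Figure D1:**
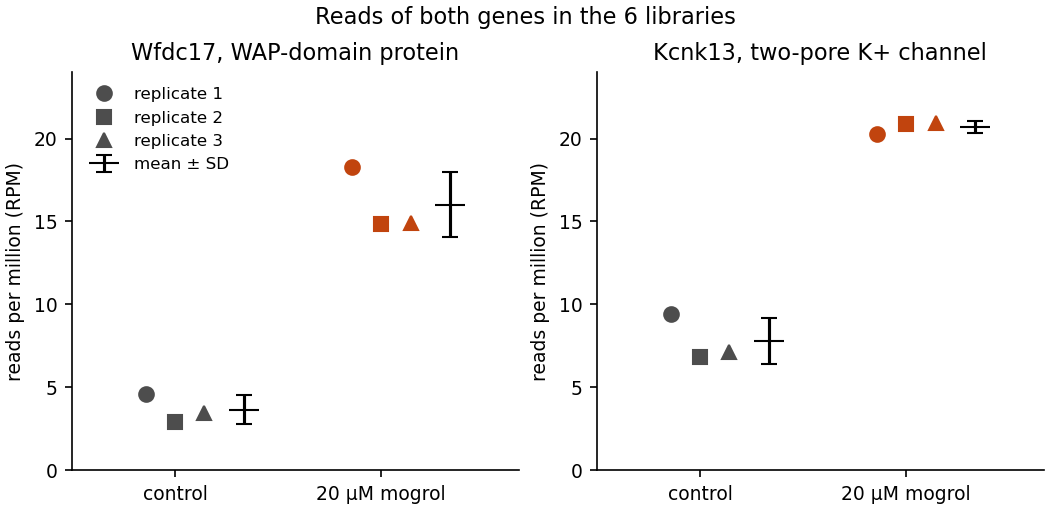
RPM of Wfdc17 (left) and Kcnk13 (right) in each library, by group, with symbols for the replicate number and black bars for the mean ± SD (n = 3). Wfdc17 lies between 2.90 and 4.59 RPM in control cells and between 14.9 and 18.3 RPM with mogrol, and Kcnk13 between 6.81 and 9.39 RPM and between 20.3 and 21.0 RPM.

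A call in edgeR was set at a difference of more than 2-fold and a Benjamini-Hochberg adjusted p-value below 0.05. By this rule 107 of the 109 genes, or 98.2%, were called. Of the 109 genes 45 (41.3%) were called higher with mogrol, among them Wfdc17 and Kcnk13. Because every gene of the table had been selected on this contrast, these calls describe the table and do not test either gene. Scaling by the deposited genes alone shrank the lower calls from 62 to 36 (TMM) or 8 (median of ratios), while 45 genes were called higher with each. Groups that did not overlap were found for 100% of the table, so separated groups say nothing particular about these genes. Over the 45 higher genes the median log2 fold change was 1.31, with a range from 1.10 to 2.91, and over all 109 genes it was -1.09.

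The deposited FPKM values divide the reads by gene length as well as by library total, and allow levels to be compared between genes. In FPKM, the control libraries had 8.61, 5.43 and 6.49 for Wfdc17, and the mogrol libraries 34.3, 27.9 and 28.0. For Kcnk13 the control libraries had 3.02, 2.19 and 2.29 FPKM, and the mogrol libraries 6.51, 6.71 and 6.73 FPKM. Wfdc17 was thus the more abundant transcript per length in every library, although it had fewer reads than Kcnk13 in every library.

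The FPKM of Wfdc17 was 2.74 times that of Kcnk13 in control cells, with single libraries at 2.85, 2.48 and 2.83. In mogrol-treated cells it was 4.52 times, with libraries at 5.27, 4.16 and 4.16. The lowest mogrol ratio was above the highest control ratio. Because FPKM depends on the length assigned to a gene, the size of these ratios rests on the 533 bases taken for Wfdc17. Both ratios share that length, so their order between the groups does not depend on it.

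In the order of mean FPKM over the 109 genes, Wfdc17 was 35th in control cells, at 6.84 ± 1.62 FPKM (SD, n = 3). Its neighbors there were the bacterial RNA sensor gene Tlr13 at 7.12 ± 0.756 and the angiopoietin gene Angpt2 at 6.65 ± 0.152, both within its spread. In mogrol-treated cells it was 14th at 30.1 ± 3.66 FPKM, between the selenium carrier gene Selenop at 32.0 ± 1.18 and 4833415N18Rik at 26.8 ± 1.77, and again did not differ from either beyond its own spread.

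Kcnk13 was 60th in control cells, at 2.50 ± 0.453 FPKM (SD, n = 3), and was not separated from Tgtp2 at 2.53 ± 0.150 or Susd3 at 2.44 ± 0.403. In mogrol-treated cells it was 37th at 6.65 ± 0.122 FPKM, next to Spn at 6.74 ± 0.320 and Clec7a at 6.45 ± 0.510. The median FPKM of the 109 genes was 2.94 without mogrol and 3.0 with it. In control cells Kcnk13 thus lay below the median of the table and Wfdc17 above it, and with mogrol both lay above it.

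**Figure D2:**
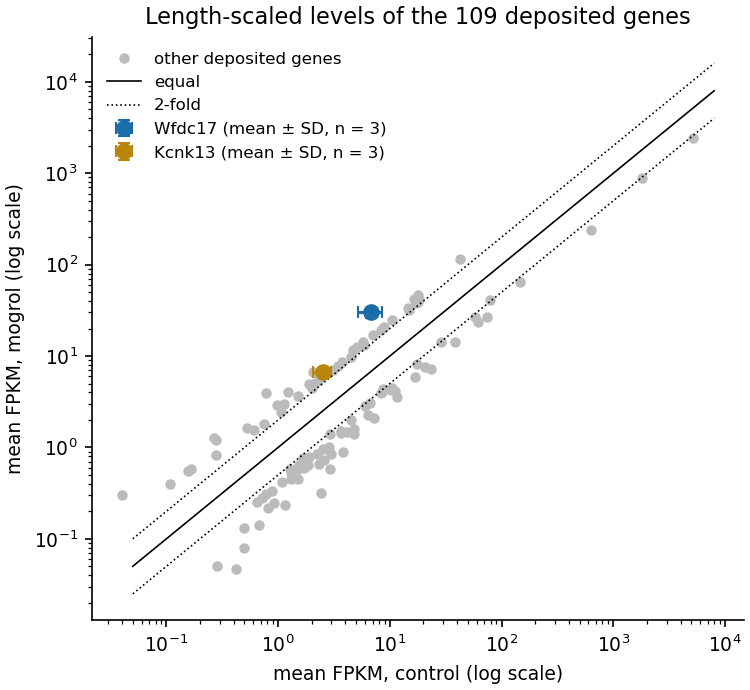
Mean FPKM in control cells (x) and in mogrol-treated cells (y) for the 109 deposited genes, both on log scales, with lines for equal levels and for 2-fold differences. Wfdc17, at 6.84 and 30.1 FPKM, lies farther above the upper 2-fold line than Kcnk13, at 2.50 and 6.65 FPKM, and the near-empty band between the lines follows from the selection of the table.

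The spread between libraries differed between the genes. For Wfdc17 the coefficient of variation was 23.6% in control cells, where counting error alone at 67.3 reads would give 12.2%, and 12.2% in mogrol-treated cells, where counting would give 5.84%. For Kcnk13 it was 18.1% in control cells against 8.34% from counting. In mogrol-treated cells the 3 Kcnk13 values varied by 1.83%, less than the 5.13% that counting error gives at 379.3 reads per library, and 3 libraries give only a rough estimate of either spread. Over the 109 genes the median coefficient of variation was 11.2% without mogrol and 9.88% with it. Control replicate 1 was the highest control library for 32 of the 45 higher genes and for 11 of the 64 lower genes, so the high value of both genes in that library was shared with most of the genes that were higher with mogrol. Without it, the log2 fold changes were 2.33 for Wfdc17 and 1.57 for Kcnk13.

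The genes with the most similar pattern were found from log2(RPM + 0.5), centered on each gene's mean over the 6 libraries, by the root mean square difference between profiles. For Kcnk13 the nearest were Cybb at 0.0317, Cx3cr1 at 0.0721 and Dok2 at 0.0932, against a median of 1.24 over all other genes. Cybb encodes the catalytic subunit of the phagocyte NADPH oxidase, Cx3cr1 the fractalkine receptor of monocytes and microglia, and Dok2 an adaptor that dampens tyrosine kinase signaling. For Cybb the control libraries had 112, 84.2 and 89.1 RPM, and the mogrol libraries 249, 239 and 252 RPM. Its log2 fold change (1.37, standard error 0.0850) was close to that of Kcnk13, and its control libraries had the same order as those of Kcnk13.

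For Wfdc17 the nearest profiles were less close, namely Nrcam at 0.223, Spn at 0.248 and St14 at 0.288. The median over all other genes, most of them lower with mogrol, was 1.56. Spn encodes the leukocyte sialoglycoprotein CD43, and St14 the membrane serine protease matriptase. The log2 fold changes were 1.71 (standard error 0.125) for Spn and 1.77 (standard error 0.262) for St14, the latter from a mean of 23.7 reads in control cells. Kcnk13 was the 9th nearest gene to Wfdc17, at 0.341, whereas Wfdc17 was only the 42nd nearest to Kcnk13. All of these genes share the libraries and the selection on the same contrast, so likeness is a description over 6 libraries. The distances also depend on read number, and counting error in control cells was 12.2% for Wfdc17 and 8.34% for Kcnk13. What part counting error had in the wider distances around Wfdc17 was not tested. No other gene of the table lies within 1000000 bases of either gene.

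**Figure D3:**
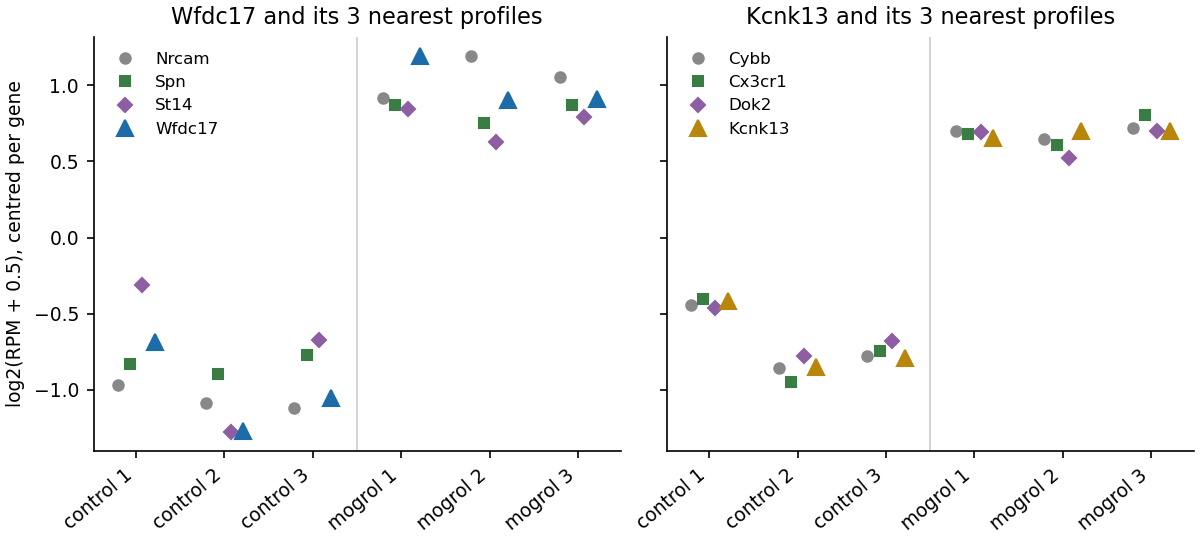
Centered log2(RPM + 0.5) in each of the 6 libraries for Wfdc17 (left) and Kcnk13 (right), each with its 3 nearest profiles; points of a library are offset sideways for clarity. The profiles around Kcnk13 (0.0317 to 0.0932 from it) almost coincide, and those around Wfdc17 (0.223 to 0.288) are more scattered. Wfdc17 has the fewer reads, and the part of counting error in this scatter was not tested.

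Of a list of 19 WAP and elafin-type genes, Wfdc17 was the only one among the 109 selected genes, and levels of the others were not analysed here. Of a list of 20 protease genes that mixes serine, metallo- and cysteine proteases, 7 were present, of which edgeR called 2 higher and 5 lower. Over all 109 genes 45 (41.3%) were called higher and 62 lower. The median log2 fold change of the 7 was -1.27, beside -1.09 over all 109. No gene of the table lay between -0.949 and 1.10, so such a median mainly shows which direction held more genes. The 2 higher ones were the serine protease gene St14 and the gene of the metalloprotease macrophage elastase, Mmp12, which had a log2 fold change of 1.31. The lower ones were the serine protease genes Corin (-2.33), Gzmc (-1.78) and Gzmd (-1.27), the metalloprotease gene Mmp13 (-1.80), a collagenase, and Ctsk (-1.08), which encodes the osteoclast cysteine protease cathepsin K.

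Of a list of 14 tandem-pore potassium channel genes, Kcnk13 was likewise the only one among the 109 selected genes. Of 31 other channels, pumps and transporters 6 were present, 4 called higher and 2 lower, in a table where 98.2% of genes were called and 41.3% called higher. Their median log2 fold change was 1.17, beside -1.09 over all 109 genes. Hvcn1, the voltage-gated proton channel of phagocytes, had a log2 fold change of 1.20, with 13.2 ± 1.31 RPM in control cells and 30.4 ± 2.14 RPM under mogrol (SD, n = 3). Slc11a1, the phagosomal metal transporter, had a log2 fold change of 1.14, and Atp2a3, a calcium pump of the endoplasmic reticulum, one of 1.80 from low counts, at 0.833 ± 0.369 RPM in control cells. The lower genes of the list were Atp1b1, a β subunit gene of the sodium-potassium pump that carries potassium into the cell, at -1.49, and the chloride channel family gene Clic5, at -1.43.

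Potassium or ion transmembrane transport appears in the deposited biological process terms of 8 genes, of which Kcnk13 is 1, and 6 of the 8 were called higher and 2 lower. Inflammatory response appears in the terms of 9 genes, 8 called higher and 1 lower, with a median log2 fold change of 1.27. Both counts stand beside 41.3% called higher and a median of -1.09 over the 109 genes, all selected on this contrast, and of the genes called, 42.1% were higher on library totals and 84.9% with median-of-ratios scaling. The largest was that of Tnfsf4, the OX40 ligand gene, at 2.32. Among genes annotated to negative regulation of that response, log2 fold changes were 1.35 for the cannabinoid receptor gene Cnr2 and 1.21 for the prostaglandin E2 receptor gene Ptger4, which also carries the positive term, whereas the lower gene of the 9 was the T cell adaptor gene Lat at -1.05. None of the 9 listed genes of the NLRP3 inflammasome was among the 109 selected genes, and their levels were not analysed here.

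Both genes are expressed by macrophages, and most of the listed macrophage markers that were in the table were also higher with mogrol. Of 19 macrophage markers 11 were in the table, 10 called higher and 1 called lower. Their summed level was 371 to 451 RPM in control libraries and 929 to 1014 RPM with mogrol. Their median log2 fold change was 1.27. Over all 109 genes 98.2% were called and 41.3% called higher, and these shares stand beside the counts of every marker list here. Only genes already selected on this contrast were counted, and the listed markers outside the table were not analysed. The lists were also chosen with earlier results of these data known, so the shared direction of a list is no separate evidence. The 2 osteoclast markers present of 11, Ctsk and Ckb, were lower, summing to 12507 to 13966 RPM in control and 6117 to 6460 RPM in mogrol libraries. Stromal and bone matrix markers, of which 14 of 16 were present, were all lower, from 1702 to 1761 RPM down to 687 to 744 RPM in sum, 13 of them past the call. The 4 T cell, NK cell and mast cell markers present of 11 were also lower, from 38.0 to 42.6 RPM down to 16.4 to 19.5 RPM. No marker present was at 0 in any library. In bulk RNA a larger share of macrophages and more RNA per macrophage cannot be told apart.

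The RPM of both genes was also set against the summed macrophage markers of the same library. The Kcnk13 RPM of the control libraries equaled 2.08%, 1.83% and 1.85% of that sum and that of the mogrol libraries 2.0%, 2.25% and 2.11%, so the groups overlapped. The means were 1.92% ± 0.139 and 2.12% ± 0.125 (SD, n = 3). The Wfdc17 RPM of the control libraries equaled 1.02%, 0.780% and 0.897% of the sum and that of the mogrol libraries 1.80%, 1.60% and 1.50%. These groups did not overlap, with means of 0.898% ± 0.119 and 1.63% ± 0.154 (SD, n = 3). The marker sum was higher in every mogrol library, so the 64 genes lower with mogrol are separated on this ratio too. Separation is thus not particular to Wfdc17, and the share over all 109 genes was not counted. The markers in that sum were themselves selected on the same contrast, and they include Cybb and Cx3cr1, the nearest profiles of Kcnk13. The comparison thus restates the fold changes of both genes beside those of the markers, whose median log2 fold change was 1.27. It is no measure of macrophage content. Whether the change of the markers had a part in that of either gene was not tested.

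Both genes were higher with mogrol under every alternative tried. The log2 fold change ranged from 1.99 to 3.11 for Wfdc17 and from 1.14 to 2.39 for Kcnk13, and that of Wfdc17 was the larger by 0.60 to 0.86. The values farthest from the edgeR fit on library totals came from scaling by the deposited genes alone, which raised the median log2 fold change of the table by 0.37 (TMM) and 0.98 (median of ratios).

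**Figure D4:**
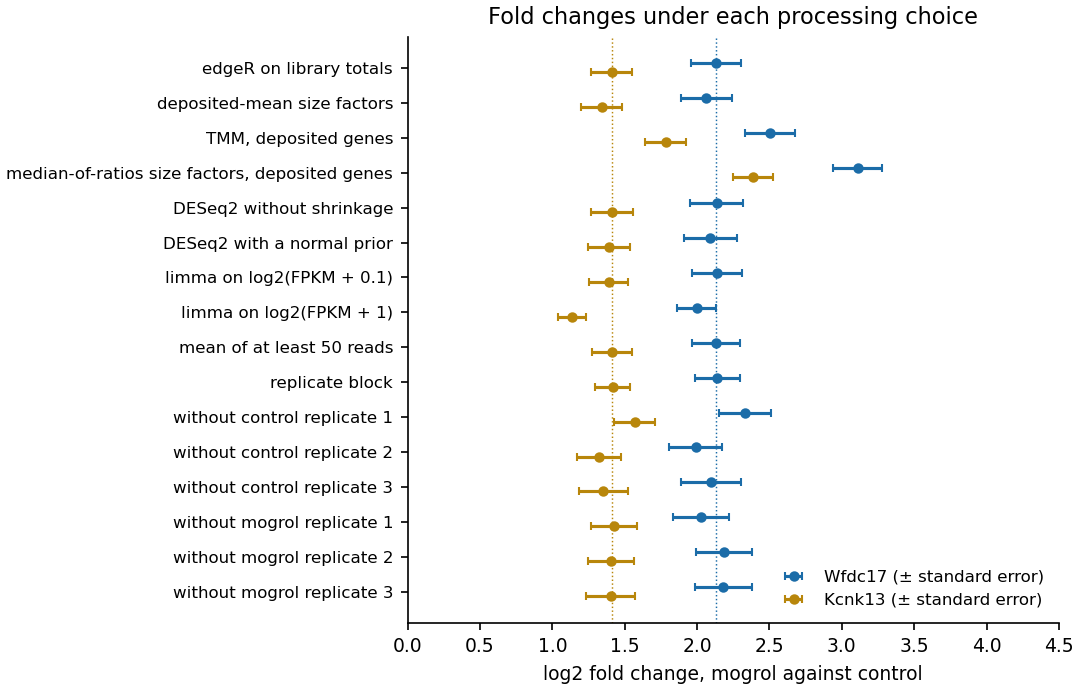
Log2 fold changes of Wfdc17 and Kcnk13, mogrol against control, under each processing choice, with bars for the standard error and dotted lines at the edgeR fit on library totals (2.13 and 1.41). The points of both genes stay above 1, with Wfdc17 to the right of Kcnk13 in every row.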

How the data were processed

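Poly(A) or rRNA-depleted RNA of 6 BMM samples was sequenced by the authors. The submitters' processing notes name cutadapt 1.9.1, HISAT2 2.0.1, HTSeq 0.6.1 and GRCm38; use of strand in counting is not given in the sources used here. The deposited table holds the authors' raw read counts and FPKM per gene and library, with their mean normalized count, a signal averaged over all libraries. Its length column gave the bases behind FPKM. The authors' log2 fold changes, test scores and p-values are deposited too and were not used.

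Library totals were recovered from counts, FPKM and length to within 35.7 reads. Counts were fitted with edgeR 4.0.16 (glmQLFit, glmQLFTest, R 4.3.3) on these totals, without filter or covariate, after the fit was tested on simulated data; standard errors are the log2 fold change over the square root of F. Alternatives used DESeq2 1.42.0, limma 3.58.1, other size factors, a filter at 50 reads, a replicate block and each library left out. Promoters came from RefSeq (both genes matched) and gene models from GENCODE M21, where 107 of 109 genes had the same start and end; look-alike transcripts were found with blastn. Named genes are the members, their 3 nearest profiles, their neighbors in order of fold change, and members of gene lists and GO terms; neighbors in FPKM order were named after their values were seen. The members and lists were chosen with earlier results of these data known. Some members of the lists are counted but not reported here by name.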

Additional observations from a re-analysis of the deposited data

How the results depend on the processing

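With TMM over the deposited genes the log2 fold change was 2.50 for Wfdc17 and 1.78 for Kcnk13, and 36 genes were called lower; with median-of-ratios size factors over those genes it was 3.11 and 2.39, with 8 genes lower. Both settings center a table in which 64 of 109 genes were lower, and of the genes called 55.6% and 84.9% were higher, against 42.1% on library totals. Limma on log2(FPKM + 1), in which the added 1 shrinks low values, gave 1.14 for Kcnk13 and called 25 genes higher and 27 lower, against 45 and 62. Leaving out each library in turn gave 1.99 to 2.33 for Wfdc17, 1.32 to 1.57 for Kcnk13, 45 genes higher throughout and 60 to 63 lower. The other alternatives moved either fold change by less than the spread between replicates, and none of the 15 changed its direction. The ratio of the FPKM of Wfdc17 to that of Kcnk13 stayed between 2.66 and 2.84 in control cells and between 4.16 and 4.70 in mogrol-treated cells.

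In a fit with a replicate block the log2 fold changes were 2.14 and 1.42, their difference 0.72, and 45 genes were called higher and 62 lower. The 3 control and mogrol libraries that share a number had correlations of 0.0839, 0.197 and 0.0666 between their departures from the mean of the group, across the 109 genes, and were not treated as paired. The lowest library held 54 reads of Wfdc17 and 127 of Kcnk13, which limits the precision of single values.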
